A study of Mus musculus with 5 samples.

Results

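Glycolysis and the synthesis of cholesterol and fatty acids were followed through 35 genes, chosen by name as the steps of these pathways. All 35 genes were found among 18418 genes listed over the 5 libraries (Msmo1 under its older symbol Sc4mol). They comprised 15 glycolysis genes from the hexokinases to lactate dehydrogenase, Fbp1, 14 cholesterol synthesis enzymes, the sterol regulators Insig1 and Srebf2, and the fatty acid synthesis genes Scd1, Fasn and Acaca. Single cells of mouse intestinal organoids, which are epithelial cultures grown in a gel with Egf, Noggin and R-spondin, were sorted into 384-well plates and their mRNA was counted from the 3′ end with molecular identifiers (UMIs). The libraries were fetal intestine, wild type (fetal), small intestine, wild type (WT), small intestine, Lkb1 +/- (het), and 2 small intestine libraries, Lkb1 -/-, whose names carry the marks Bud and Cys, used here as given. Each group was 1 library, and the sources used here name no animal, clone or passage, so no test between groups was possible and a difference between libraries cannot be told apart from a difference between cultures or plates.

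Glycolysis turns glucose into pyruvate and lactate, with hexokinase and phosphofructokinase as regulated early steps. Cholesterol is built from acetyl-CoA through mevalonate, squalene and lanosterol, and the transcription factor encoded by Srebf2 switches on these enzymes when sterols are scarce, while the Insig1 product holds that factor back in the endoplasmic reticulum. Lkb1, whose gene is Stk11, activates the kinase AMPK, which is known to restrain sterol synthesis and acetyl-CoA carboxylase and to affect glucose uptake and glycolysis.

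Wells with at least 1000 UMIs were kept, which left 302 wells (WT) to 371 wells (fetal) per library, 4035219 to 5865507 UMIs, and a median of 10414 UMIs (Cys) to 14637 UMIs (fetal) per well. In Cys, 2 wells above 100000 UMIs held 12.04% of the UMIs, and wells with over 2% of UMIs from the nuclear RNA Kcnq1ot1 made up 0.539% (fetal) to 17.1% (het) of the kept wells. Stk11 stood at 20.6 CPM in WT, 14.1 in het, 11.7 in Bud, 9.03 in Cys and 16.0 in fetal. It was 1.76-fold lower in Bud and 2.28-fold lower in Cys than in WT. The labels do not say where Lkb1 was edited, so its 3′ count is no check of the genotype. The immune, mesenchymal and endothelial marker lists summed to at most 2.73 CPM in any library. Of 16 enterocyte markers, 8 were detected in fetal and the others were at 0, Fabp1, Apoa1 and Sis among them, against 15 detected in WT. Marker lists of other cell states differed as well, such as 9 fetal epithelium genes, summing to 131 CPM in WT, 164 in het, 545 in Bud, 11198 in Cys and 12997 in fetal, and 8 gastric genes, summing to 3.72 CPM in WT, 12.3 in het, 30.01 in Bud, 5031 in Cys and 53.7 in fetal. Against WT, the 10 stem cell markers had 9 lower and 1 higher in Cys, and 8 lower and 2 higher in fetal. Of 16 proliferation genes, 3 were lower and 0 higher in Cys, and 12 lower and 1 higher in fetal. By the same call rule, defined below, 17.6% of all genes were higher and 22% lower in Cys, and 29.4% and 22.3% in fetal. The Cys proliferation count was near that share of all genes. The Paneth, goblet, tuft and enteroendocrine lists differed too. The part of these cell states in the members' differences was not tested, and a difference in a summed level cannot be told apart from a difference in the mix of cells.

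The promoters of 3 members are shown because they carry the letters that the sterol and glycolysis genes share or do not share. Capitals mark matches, on either strand, to CCAAT (read ATTGG on the other strand), to TCACNCCAC (a core form of the sterol regulatory element), to CACGTG (an E-box) and to ACGTG (read CACGT on the other strand, the core of the hypoxia response element, which overlaps every CACGTG). The sequences come from RefSeq (GRCm38.p6), run 5′ to 3′ along the gene and end before the gene as GENCODE annotates it. The Hmgcs1 window is chr13:119690101-119690350 on the forward strand, the Insig1 window is chr5:28071162-28071362 on the forward strand, and the Hk2 window is chr6:82774455-82774704 on the reverse strand.
Hmgcs1: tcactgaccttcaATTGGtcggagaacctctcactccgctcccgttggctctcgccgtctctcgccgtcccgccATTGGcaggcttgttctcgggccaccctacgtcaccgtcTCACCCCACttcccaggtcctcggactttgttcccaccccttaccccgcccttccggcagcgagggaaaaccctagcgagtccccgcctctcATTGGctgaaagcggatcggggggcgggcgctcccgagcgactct
Insig1: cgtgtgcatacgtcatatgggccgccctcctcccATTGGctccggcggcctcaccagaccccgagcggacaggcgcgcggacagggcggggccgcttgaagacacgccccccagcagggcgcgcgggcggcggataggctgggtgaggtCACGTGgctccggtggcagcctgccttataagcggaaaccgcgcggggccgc
Hk2: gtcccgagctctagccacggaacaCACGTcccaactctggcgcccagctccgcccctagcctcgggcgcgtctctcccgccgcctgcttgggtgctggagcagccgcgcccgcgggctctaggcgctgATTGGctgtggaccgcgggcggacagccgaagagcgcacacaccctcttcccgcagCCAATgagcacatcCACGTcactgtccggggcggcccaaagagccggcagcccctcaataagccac

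Within 250 bases before an annotated start, CCAAT was found in all 11 cholesterol synthesis enzymes with a promoter in the RefSeq table (Hmgcs1, Mvk, Pmvk, Mvd, Idi1, Lss, Cyp51, Msmo1, Nsdhl, Sc5d and Dhcr7) and in Insig1 and Srebf2. Over all 27025 genes of the table, 37.5% held CCAAT, and among the glycolysis genes it was found in 6 of 15, which is 40%. The Hmgcs1 stretch holds 3 such matches beside the only TCACNCCAC of the 11 enzymes. Aldoc and Pkm also held TCACNCCAC, which 1.22% of all genes held. ACGTG was found in 7 of 15 glycolysis genes (Hk2, Pfkm, Aldoa, Pgk1, Pgam1, Pkm and Ldha), against 18.5% of all genes, and CACGTG, found in 6.86% of all genes, in Pfkm, Ldha, Sc5d, Dhcr7 and Insig1. Genes with several annotated starts had several windows searched, 26 for the 15 glycolysis genes, which raises the share of genes with a match. By window, ACGTG was found in 34.6% of these 26 and in 16.6% over all genes. CCAAT was found in 30.8% of these 26, in 78.6% of 14 cholesterol enzyme windows and in 33.8% over all genes. A match is a description of letters, not of binding. Of the 35 members, 31 had a promoter in the table. Fdps, Fdft1, Sqle and Scd1 did not.

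Levels are UMIs of a gene per 1000000 UMIs of its library (CPM), and intervals of single genes are 95% intervals that cover counting error only. The interval given with a list's median runs between medians of its members' bounds and is not a 95% interval of that median. A gene was called higher or lower between 2 libraries when the ratio of CPM reached 1.5 either way, its interval excluded 1 and both libraries together held at least 10 UMIs. That call compares libraries, not conditions. Of the 35 members, 34 were measured in every comparison; Eno1 did not reach 10 UMIs.

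Hexokinases trap glucose in the cell as glucose 6-phosphate, and Hk1 had the widest range of the 14 measured glycolysis genes, its highest level being 9.75 times its lowest. Hk1 (chr10:62268855-62379908) stood at 169 CPM in fetal, 28.5 in WT, 17.3 in het, 32.4 in Bud and 90.3 in Cys. The fetal and Cys levels stood apart above the other 3, the Bud and WT intervals overlapped, and het was lowest. Against WT the ratio was 5.92 (4.87 to 7.24) in fetal and 3.17 (2.58 to 3.93) in Cys, and Hk1 was 1.65-fold lower in het (1.22 to 2.23). Hk2 (chr6:82725025-82774454), the hexokinase whose promoter is printed above, followed another order, with 115 CPM in fetal, 65.9 in WT, 64.4 in het, 122 in Bud and 92.1 in Cys. Bud and fetal overlapped at the top, Cys lay between, and WT and het overlapped at the bottom. The Hk2 ratio to WT was 1.85 (1.59 to 2.15) in Bud and 1.75 (1.51 to 2.02) in fetal. In Cys, 1 well held 16.8% of the Hk2 UMIs. That is not particular to Hk2, as the largest Cys well held 452137 of the library's 4981282 UMIs. The share of Cys UMIs in 1 well was 15.9% for Srebf2, 15.5% for Pfkm and 7.56% for Hk1. Between Cys and WT the hexokinase called was Hk1, and between Bud and WT it was Hk2.

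The 3 phosphofructokinase genes encode subunits of the enzyme that commits fructose 6-phosphate to glycolysis, and they did not share an order. Pfkp (chr13:6579768-6648777) stood at 93.9 CPM in fetal, 202 in WT, 185 in het, 121 in Bud and 109 in Cys. WT and het overlapped at the top and the other 3 overlapped neighbour by neighbour below them. Pfkp was 1.67-fold lower in Bud (1.49 to 1.87), 1.85-fold lower in Cys (1.66 to 2.07) and 2.15-fold lower in fetal (1.92 to 2.40) than in WT. Pfkm, the subunit prominent in muscle, was highest in fetal at 43.0 CPM, against 19.3 in WT, 10.9 in het, 16.4 in Bud and 16.9 in Cys, so that the 4 small intestinal levels overlapped as neighbours. The fetal ratio to WT was 2.22 (1.72 to 2.90). Pfkl, the liver-type subunit, stood between 112 CPM in het and 173 in Cys, and no comparison called it. With every well given equal weight, Pfkl was called lower in het than in WT and higher in Bud than in het.

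**Figure D1:**
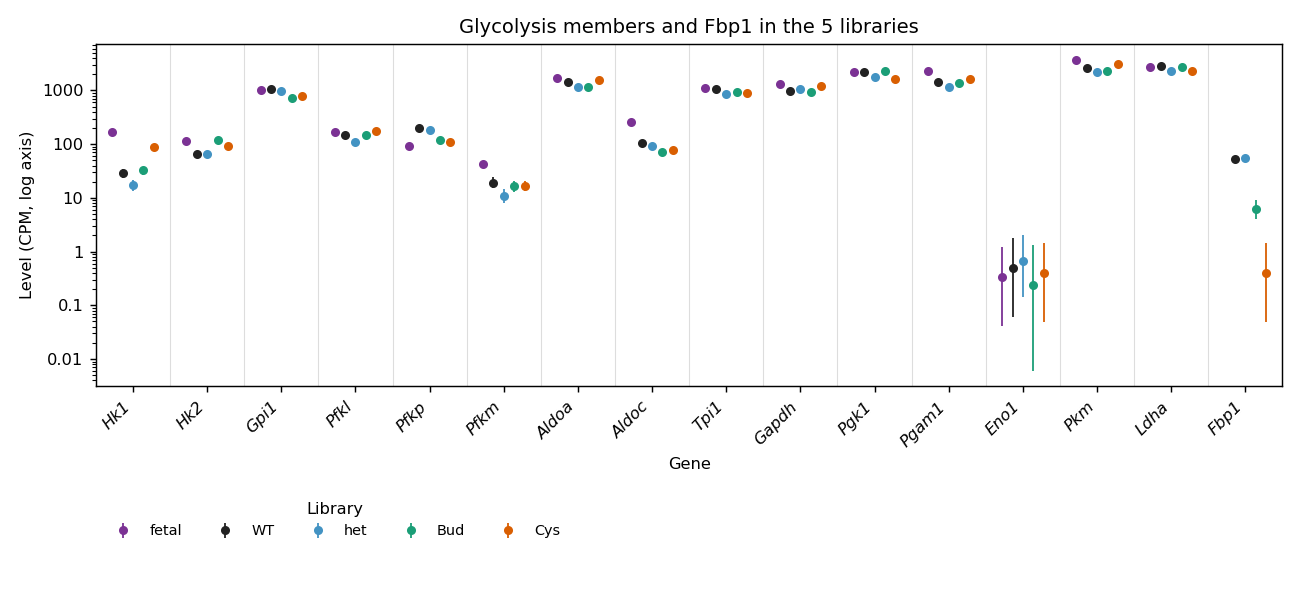
Level of each glycolysis member and of Fbp1 (CPM, log axis) in the fetal, WT, het, Bud and Cys libraries. Points are library levels and bars are exact Poisson 95% intervals for counting error; Fbp1 had 0 UMIs in fetal and has no point there. Hk1 spans 17.3 to 169 CPM and Fbp1 lies between 0.402 CPM in Cys and 54.4 in het where it was seen, while the 5 points of Tpi1, Pgk1 and Ldha lie close together.

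From aldolase to lactate dehydrogenase, Aldoc and Pgam1 were called and the other measured genes were not. Aldoc, the brain-type aldolase, stood at 255 CPM in fetal, 105 in WT, 91.9 in het, 70.5 in Bud and 77.3 in Cys. Only fetal stood apart, with a ratio to WT of 2.42 (2.17 to 2.71), and the other libraries overlapped as neighbours. Pgam1, phosphoglycerate mutase, stood at 2345 CPM in fetal, 1414 in WT, 1165 in het, 1365 in Bud and 1623 in Cys, and was called only between fetal and WT, with a ratio of 1.66 (1.61 to 1.71). Pkm, pyruvate kinase of the muscle type, reached 3712 CPM in fetal, 2675 in WT, 2227 in het, 2336 in Bud and 3107 in Cys. Its 5 intervals did not overlap, yet no comparison reached the fold. Ldha, which turns pyruvate into lactate, stood at 2717 CPM in fetal, 2901 in WT, 2287 in het, 2713 in Bud and 2311 in Cys, so that WT was highest and Cys and het overlapped at the bottom. Across the 5 libraries the highest level was 1.27 times the lowest for Ldha, 1.28 for the isomerase Tpi1, 1.38 for Pgk1, which makes ATP, 1.44 for the aldolase Aldoa, 1.46 for the dehydrogenase Gapdh and 1.49 for the isomerase Gpi1. None of these 6 was called in any of the 6 comparisons.

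Eno1, enolase, had 1 to 3 UMIs per library, and the near-identical copy Gm5506 had 3 to 7. The sources used here do not say how reads shared between copies were counted, and these near-zero counts are therefore not read as the level of enolase mRNA.

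Fbp1 encodes the enzyme that reverses the phosphofructokinase step in gluconeogenesis. It stood at 52.3 CPM in WT, 54.4 in het, 6.19 in Bud and 0.402 in Cys (2 UMIs), and 0 of 371 fetal wells had a UMI, which by a limit of 3 counts allows up to 0.809% of wells with a UMI at this depth and sets no limit on wells that express the gene. WT and het overlapped, Bud stood below them, and Cys and fetal overlapped at the bottom. Fbp1 was 8.45-fold lower in Bud (5.60 to 13.2) and 130-fold lower in Cys (35.6 to 1082) than in WT. The WT level was 102 times a floor of 3 UMIs for the fetal library, a value that leaves out the counting error of the WT level. A UMI of Fbp1 was seen in 33.4% of WT wells, 35.04% of het wells, 6.29% of Bud wells and 0.557% of Cys wells. After thinning each well to 1000 UMIs the shares were 3.64%, 5.13%, 0.943% and 0%. The 16 enterocyte markers summed to 2351 CPM in WT (15 of 16 detected), 3852 in het (16 of 16), 801 in Bud (16 of 16), 276 in Cys (14 of 16, Lct among those at 0) and 122 in fetal (8 of 16). Like Fbp1, this sum was below WT in Bud, Cys and fetal. In het the sum was above WT, while the Fbp1 levels of het and WT overlapped. The part of these markers in the Fbp1 result was not tested. Within WT, wells with and without an Fbp1 UMI had median enterocyte shares of 0.0839% and 0.0795% of UMIs, at median depths of 19234 and 7804 UMIs.

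Among the cholesterol enzymes, Hmgcs1, Dhcr7 and Sqle were each called more than once, and Sqle is described below. Hmgcs1, which makes HMG-CoA, was called in 2 of the 6 comparisons. Dhcr7, which makes cholesterol itself from 7-dehydrocholesterol, was called in 4. Hmgcs1 (chr13:119690379-119708260) stood at 368 CPM in fetal, 310 in WT, 228 in het, 200 in Bud and 346 in Cys. Fetal and Cys overlapped at the top, and WT, het and Bud followed without overlap. Hmgcs1 was 1.55-fold lower in Bud than in WT (1.42 to 1.70), and its ratio of Cys to Bud was 1.73 (1.595 to 1.88). Dhcr7 (chr7:143823145-143848410) stood at 54.4 CPM in fetal, 142 in WT, 168 in het, 88.6 in Bud and 68.7 in Cys, 5 levels whose intervals did not overlap between neighbours. It was 1.60-fold lower in Bud (1.40 to 1.83), 2.06-fold lower in Cys (1.80 to 2.36) and 2.602-fold lower in fetal (2.26 to 2.99) than in WT. With every well given equal weight the Dhcr7 ratio of Bud to WT was 0.691, which is no longer a call.

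Sqle, squalene epoxidase, separated the 2 Lkb1 -/- libraries. It stood at 196 CPM in fetal, 341 in WT, 239 in het, 291 in Bud and 181 in Cys, and only fetal and Cys overlapped. Sqle was 1.88-fold lower in Cys (1.73 to 2.05) and 1.74-fold lower in fetal (1.61 to 1.88) than in WT, and 1.61-fold lower in Cys than in Bud (1.48 to 1.76). Giving every well equal weight brought the Sqle ratio of Cys to Bud to 0.751, below the fold. Sc5d, lathosterol oxidase, stood at 102 CPM in fetal, 92.7 in WT, 96.5 in het, 61.9 in Bud and 73.9 in Cys. The 2 Lkb1 -/- levels overlapped below the other 3, which overlapped each other. Sc5d was 1.56-fold lower in Bud than in het (1.33 to 1.83), and 1.497-fold lower in Bud than in WT, just short of the fold. With wells of at least 5000 UMIs alone, the ratio of Bud to WT was 0.663 and Sc5d was called.

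In the mevalonate and later steps, 4 further enzymes differed only between fetal and WT by the call rule. Mvd, mevalonate diphosphate decarboxylase, stood at 30.3 CPM in fetal, 66.7 in WT, 61.0 in het, 54.1 in Bud and 52.4 in Cys, with fetal alone apart and 2.20-fold below WT (1.81 to 2.67). Idi1, isopentenyl diphosphate isomerase, stood at 215 CPM in fetal, 423 in WT, 378 in het, 434 in Bud and 317 in Cys. Bud and WT overlapped at the top, and fetal was 1.97-fold below WT (1.83 to 2.12). Lss, lanosterol synthase, stood at 72.6 CPM in fetal and 110 to 118 in the other 4 libraries, which overlapped, and was 1.60-fold lower in fetal than in WT (1.40 to 1.83). Nsdhl, which acts in the removal of the C4 methyl groups, stood at 97.9 CPM in fetal and 141 to 160 elsewhere, and was 1.62-fold lower in fetal than in WT (1.44 to 1.81). The kinases Mvk and Pmvk, the farnesyl and squalene synthases Fdps and Fdft1, and the sterol demethylation enzymes Cyp51 and Msmo1 reached no call in any comparison, with a highest level of 1.31 (Cyp51) to 1.81 (Pmvk) times the lowest. Pmvk was the only one of these enzymes highest in Cys, at 77.9 CPM, with an interval that overlapped that of Bud at 66.7. With every well given equal weight, Mvk and Msmo1 were called lower in Bud than in WT. That setting also called Pmvk higher in Cys than in WT, and Msmo1 higher in Cys than in Bud.

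**Figure D2:**
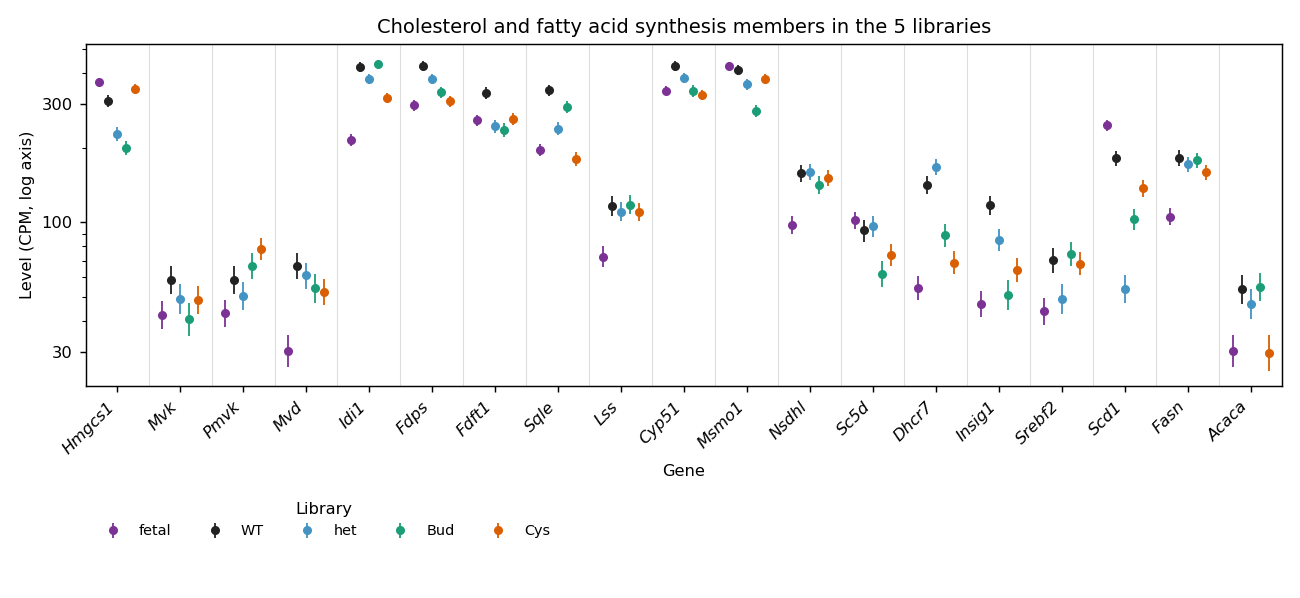
Level of each cholesterol synthesis enzyme, of the regulators Insig1 and Srebf2 and of the fatty acid genes Scd1, Fasn and Acaca (CPM, log axis) in the 5 libraries. Points are library levels and bars are exact Poisson 95% intervals for counting error. Dhcr7 and Insig1 are lower in Bud, Cys and fetal than in WT, and Scd1 has its lowest level, 53.9 CPM, in het.

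Insig1 (chr5:28071363-28078662), whose promoter holds CCAAT and CACGTG, stood at 46.7 CPM in fetal, 117 in WT, 84.9 in het, 51.0 in Bud and 64.4 in Cys. WT was highest, het followed apart, and the other 3 overlapped as neighbours. It was 2.30-fold lower in Bud (1.95 to 2.71), 1.82-fold lower in Cys (1.57 to 2.10) and 2.50-fold lower in fetal (2.15 to 2.92) than in WT. Srebf2, the gene of the factor that Insig1 restrains, had 43.6 CPM in fetal, 70.4 in WT, 49.1 in het, 74.8 in Bud and 68.1 in Cys. Bud, WT and Cys overlapped above het and fetal, and Srebf2 was 1.61-fold lower in fetal than in WT (1.36 to 1.92).

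Scd1, which puts a double bond into stearic acid, stood at 246 CPM in fetal, 181 in WT, 53.9 in het, 103 in Bud and 137 in Cys, with no overlap between neighbours. It was the only member below WT by the call rule in het outside the glycolysis genes, at 3.36-fold lower (2.90 to 3.91), and it was 1.76-fold lower in Bud (1.56 to 1.99). Fasn, fatty acid synthase, stood at 105 CPM in fetal and 159 to 182 elsewhere, and only the fetal level stood apart, 1.73-fold below WT (1.55 to 1.93). Acaca, acetyl-CoA carboxylase and a direct target of AMPK at the protein level, stood at 30.3 CPM in fetal, 53.5 in WT, 46.9 in het, 55.0 in Bud and 29.7 in Cys. Cys and fetal overlapped below the other 3, and Acaca was 1.80-fold lower in Cys (1.45 to 2.24) and 1.76-fold lower in fetal (1.44 to 2.16) than in WT.

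Between Bud and WT, the glycolysis genes had Hk2 higher and Pfkp lower of 14 measured, with a median log2 ratio (10 CPM added to each level) of -0.12 (-0.19 to -0.03) against -0.04 over all genes measured. Over all 11541 genes, 5.79% were called higher and 8.67% lower. Of the 14 cholesterol enzymes none was higher, while Hmgcs1 and Dhcr7 were lower, with a median of -0.34 (-0.46 to -0.21). Gpi1, Aldoc, Msmo1 and Sc5d lay just outside the fold, at 1.488, 1.491, 1.46 and 1.497 times lower. All members together had 1 higher and 6 lower of 34, the lower ones being Pfkp, Fbp1, Hmgcs1, Dhcr7, Insig1 and Scd1.

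Between Cys and WT, where 17.6% of 11782 genes were called higher and 22% lower, 1 of 34 members was higher (Hk1) and 6 were lower (Pfkp, Fbp1, Sqle, Dhcr7, Insig1 and Acaca). The median log2 ratio was -0.00 (-0.10 to 0.17) for glycolysis and -0.29 (-0.46 to -0.09) for cholesterol synthesis, against -0.06 over all genes. Against Bud, with 19.2% of genes called higher and 19.5% lower, Cys had Hk1 and Hmgcs1 higher and Fbp1, Sqle and Acaca lower. Hk2, Pfkp, Dhcr7 and Insig1, which were called in Bud or Cys against WT, were not called between Cys and Bud. With every well given equal weight, Hk2 was called lower in Cys than in Bud (ratio 0.588) and the Fbp1 call ended, at a ratio of 0.271. Bud and Cys share the WT library in these comparisons, so their ratios to it are not independent.

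Between het and WT, 8.43% of 11652 genes were called higher and 8.83% lower. Hk1 and Pfkm were lower of 14 glycolysis genes and no cholesterol enzyme was called, with medians of -0.27 (-0.33 to -0.20) and -0.17 (-0.27 to -0.02) against -0.02 over all genes. Both glycolysis calls ended when every well was given equal weight, at ratios of 0.709 for Hk1 and 0.757 for Pfkm. Between Bud and het, where 8.94% of genes were higher and 11.7% lower, Hk1 (1.87), Hk2 (1.89), Pfkm (1.505), Srebf2 (1.52) and Scd1 (1.91) were higher, the ratios of CPM given in brackets, and Pfkp, Fbp1, Sc5d, Dhcr7 and Insig1 were lower. The Pfkm call there rested on 69 and 48 UMIs. Equal weight for every well ended the calls of Srebf2 (ratio 1.39) and Dhcr7 (0.682) between Bud and het.

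Between fetal and WT, 29.4% of 12534 genes were called higher and 22.3% lower. Glycolysis had Hk1, Hk2, Pfkm, Aldoc and Pgam1 higher and Pfkp lower of 14, with a median log2 ratio of 0.37 (0.32 to 0.42) against 0.06 over all genes. Cholesterol synthesis had 0 higher and 6 lower of 14 (Mvd, Idi1, Sqle, Lss, Nsdhl and Dhcr7), with a median of -0.45 (-0.61 to -0.34). Equal weight for every well ended the calls of Hk2 (ratio 1.33) and Lss (0.773).

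**Figure D3:**
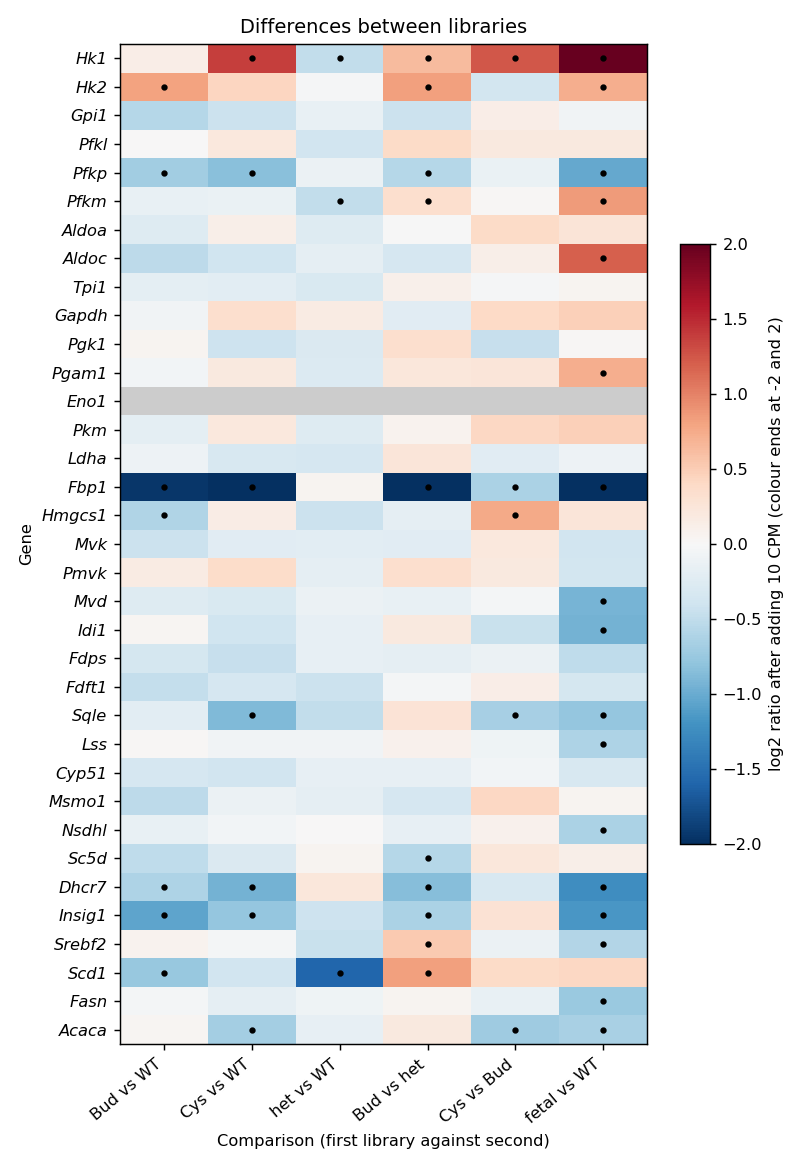
Differences of the 35 members between libraries in 6 comparisons, as log2 ratios after adding 10 CPM to each level. Red is higher and blue lower in the first library, dots mark called members, and grey marks Eno1, which had too few UMIs. Dhcr7 and Insig1 carry dots in the same 4 comparisons, Bud and Cys and fetal against WT and Bud against het, and most other glycolysis rows are pale outside fetal against WT.

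Other genes of these pathways were listed separately. Of 23 further glycolysis and glucose genes measured between Bud and WT, 0 were higher and 6 lower, against 5.79% and 8.67% of all genes, and between Cys and WT 4 were higher and 12 lower, against 17.6% and 22%. Pklr, liver-type pyruvate kinase, was 2.10-fold lower in Bud and 4.54-fold lower in Cys than in WT. Slc2a1, the glucose transporter GLUT1, stood at 56.8 CPM in WT, 58.0 in het, 68.1 in Bud, 101 in Cys and 95.5 in fetal, and its ratio of Cys to WT was 1.78 (1.52 to 2.09). G6pdx, the entry to the pentose phosphate pathway, had a ratio of Cys to WT of 2.61 (2.40 to 2.85) and of Bud to WT of 0.958.

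Of 22 further sterol genes measured, 0 were higher and 3 lower in Bud than in WT (5.79% and 8.67% of all genes), and 2 were higher and 9 lower in Cys (17.6% and 22%). Npc1l1, which takes up dietary cholesterol in enterocytes, stood at 54.3 CPM in WT, 24.8 in Bud and 0 in Cys. Me1, malic enzyme, which supplies NADPH for fatty acid synthesis, stood at 42.6 CPM in WT, 36.6 in het, 24.1 in Bud, 278 in Cys and 663 in fetal. Of 14 further fatty acid genes, Me1 was the only one higher in Cys than in WT, with a ratio of 6.53 (5.57 to 7.70), while 5 were lower, and between Bud and WT 0 were higher and 4 lower, Me1 among them. Of 9 measured genes of the Lkb1 and AMPK complexes, 0 were higher and 2 lower in Bud than in WT, and 2 higher and 1 lower in Cys, with the same shares of all genes behind these counts.

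Summed over their members, glycolysis genes took 1.70% of all UMIs in fetal, 1.43% in WT, 1.21% in het, 1.30% in Bud and 1.37% in Cys. The median well held 1.40%, 1.32%, 0.924%, 1.04% and 1.19% in the same order, and single wells ranged up to 6.77% in fetal. Cholesterol synthesis genes took 0.254%, 0.337%, 0.291%, 0.269% and 0.270% of UMIs, with WT highest. The spread between wells of 1 library was wider than the differences between library medians for both pathways. That spread includes the counting error of single wells, which was not separated from differences between cells. In het, 20 of 351 wells held no UMI of the cholesterol synthesis genes.

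**Figure D4:**
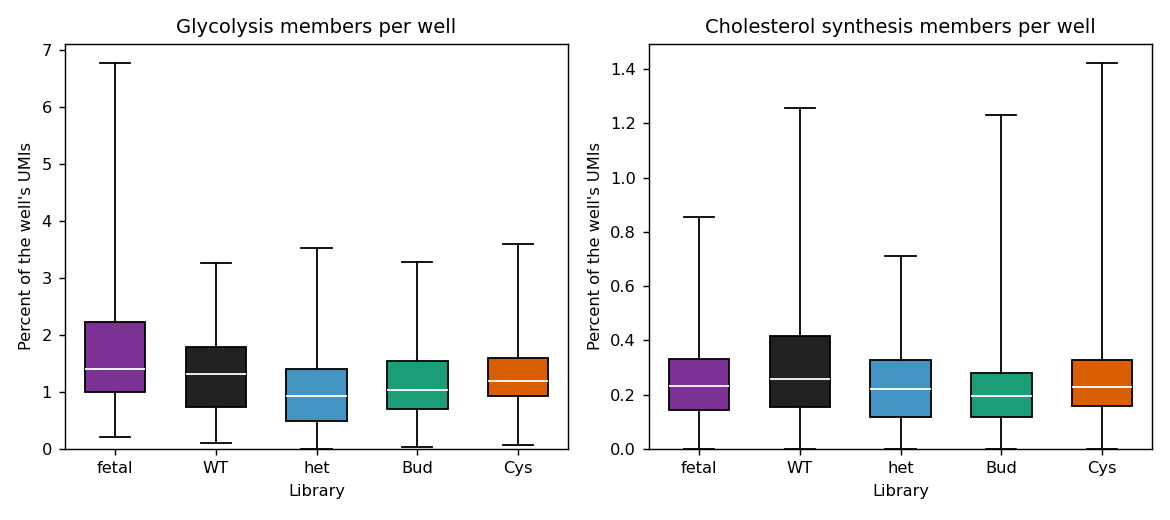
Percent of each well's UMIs from the glycolysis genes (left) and from the cholesterol synthesis enzymes (right) in the 5 libraries. Boxes run from the first to the last quartile, the white line is the median well and whiskers reach the lowest and highest well. Median wells lie between 0.924% and 1.40% for glycolysis, and fetal wells reach 6.77%.

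Across wells, the glycolysis percent followed the percent from 12 hypoxia response genes that are not members (Car9, Bnip3, Egln3, Vegfa, Adm and others), with Spearman coefficients of 0.73 in fetal (371 wells), 0.82 in WT (302), 0.73 in het (351), 0.70 in Bud (318) and 0.61 in Cys (359). The hypoxia list itself summed to 2139 CPM in fetal, 2217 in WT, 2062 in het, 1827 in Bud and 1296 in Cys, and its part in the differences between libraries was not tested. Between fetal and WT, where these sums were close, 7 of the 12 hypoxia genes were higher and 2 lower, with a median log2 ratio of 0.68 (0.56 to 0.81). Over all genes measured between fetal and WT, 29.4% were higher and 22.3% lower, with a median of 0.06. The coefficient between the glycolysis and cholesterol percents was 0.16 in fetal, 0.63 in WT, 0.65 in het, 0.46 in Bud and 0.35 in Cys. Wells share their library, and the glycolysis percent also followed the total UMIs of the well, from -0.03 in fetal to 0.55 in het. The cholesterol percent followed the total UMIs as well, from 0.11 in fetal to 0.57 in het. Wells rich in Kcnq1ot1 were kept here, from 0.539% of wells in fetal to 17.1% in het. The part of depth and of these wells in the coefficients was not tested. These coefficients are descriptions over wells, which are not replicates.

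To show which members carried this, wells with at least 5000 UMIs were ranked by the hypoxia list and the top 25% were set against the bottom 25% within each library, a split chosen after the coefficients were seen. Of 14 glycolysis genes, 13 were higher in the top wells in fetal, WT, het and Bud and 12 in Cys, where 9.74%, 10.2%, 13.2%, 9.02% and 6.67% of all genes were called higher. Pfkm was called in none of the 5 libraries, with ratios of 0.479 to 1.30. Pfkp had ratios of 8.79 in fetal, 3.87 in WT, 9.10 in het, 6.49 in Bud and 3.34 in Cys, and Aldoc 8.15, 6.68, 2.23, 5.28 and 3.08. Pfkl, the remaining phosphofructokinase gene, had ratios of 1.70 to 3.56. The median ratio over the 14 genes was 2.88 in fetal, 3.08 in WT, 2.55 in het, 2.25 in Bud and 1.70 in Cys.

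The cholesterol enzymes were called higher in the same top wells for 14 of 14 in WT, 10 in Bud, 7 in het, 7 in Cys and 4 in fetal. Sqle, Lss and Msmo1 were higher in all 5 libraries, and Scd1 as well, with ratios of 1.81 in fetal to 6.66 in WT. Insig1 was higher in 4 libraries, with 4.70 in WT and 3.78 in Cys, and not in Bud at 1.32. Srebf2, Fasn and Acaca were higher in none, and Fasn was called lower in fetal (0.616) and Acaca in het (0.604), where 15% and 14.8% of all genes were called lower. The top and bottom wells had median depths of 16220 and 16579 UMIs in WT, and of 10687 and 13591 UMIs in Cys.

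Ranking wells by 16 proliferation genes instead gave 0 glycolysis genes higher in the top 25% of wells in any library, where 14.4% of all genes were called higher in fetal, 16.7% in WT, 20.5% in het, 13.8% in Bud and 16.9% in Cys. Of the 14 genes, 8 were lower in fetal, 6 in WT and 5 each in het, Bud and Cys, against 11.3%, 12.9%, 15%, 11.9% and 8.95% of all genes in that order. Aldoa and Aldoc were lower in all 5 libraries, Aldoc by the widest margin in fetal with a ratio of 0.166. Acaca went the other way in fetal (2.44) and het (2.66), and Fasn in the same 2 libraries (1.59 and 1.71). Scd1 was lower in the proliferation-rich wells of fetal (0.597), WT (0.279) and Bud (0.498). Median depth differed between these sets of wells, at 18547 and 12617.5 UMIs in fetal and 21132.5 and 10483 UMIs in Bud, and the part of depth was not tested.

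**Figure D5:**
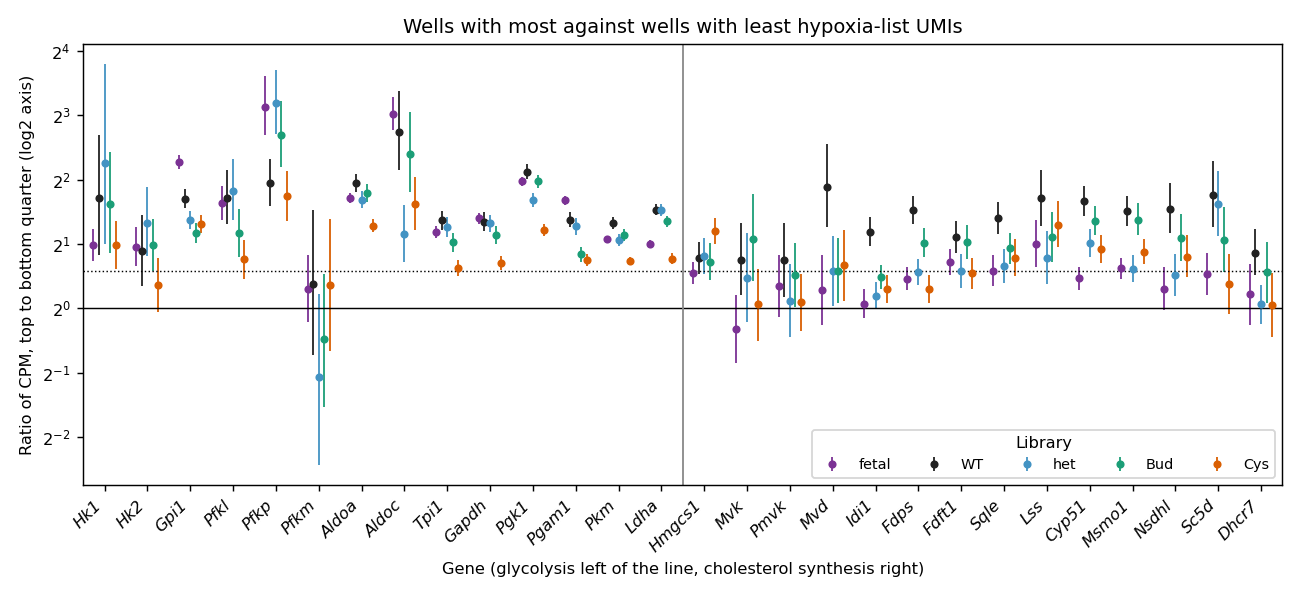
Ratio of CPM between the 25% of wells with the highest and the 25% with the lowest share of hypoxia-list UMIs (log2 axis), for each measured glycolysis gene and cholesterol enzyme in the 5 libraries. Bars are 95% intervals for counting error, the solid line marks a ratio of 1 and the dotted line the fold of 1.5. Glycolysis genes other than Pfkm lie mostly above the dotted line, and WT points are highest for most cholesterol enzymes.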

How the data were processed

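Members were given by name, and members and gene lists were chosen with earlier results of these data known. Reads were processed with STAR 2.6.1, featureCounts 1.5.2 and Seurat 4.1.0 on GRCm38, per the submitters' processing notes; strand and multi-mapping settings are not given in the sources used here. The authors deposited, for each library, counts of reads, counts of UMIs and estimated transcript counts per gene and well (the last not whole numbers, an expected count). UMI counts as deposited were used; the estimated counts were an alternative and read counts gave reads per UMI (2.55 to 3.29). Spike-in genes were left out, and wells with at least 1000 UMIs were kept and summed to CPM, with no doublet removal. All plates use the same 384 well names, so names shared by libraries do not mark shared cells. Ratios have exact conditional binomial intervals, levels exact Poisson and shares of wells exact Clopper-Pearson intervals at 95%. UMIs are molecules, and these intervals cover counting error only. With every well given equal weight, the interval of the summed counts was rescaled to the new ratio. That is not an exact interval of the equal-weight ratio and leaves out the larger counting error of shallow wells. Because each group was 1 library, no model was fitted across libraries and no p-value is given. The interval of a list's median runs from the median of its members' lower bounds to that of their upper bounds. It is not a 95% interval of the median and leaves out the spread between genes. Each member called in any comparison is given in every library; in further lists up to 4 genes with the largest log2 ratio in Bud or Cys against WT and at least 20 CPM were eligible, with Stk11 and Slc2a1 always; some listed genes are not reported here. The ratio script was tested on simulated data. Alternatives were the transcript counts, other minimums, scaling, added CPM and fold, equal weight per well, and leaving out large or Kcnq1ot1-rich wells. Analyses used Python 3.11.15, numpy 2.4.6, pandas 2.3.3, scipy 1.17.1 and matplotlib 3.10.9.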

Additional observations from a re-analysis of the deposited data

How the results depend on the processing

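No called member changed direction under any alternative run. Of 49 member calls all 49 held with the deposited transcript counts and without the wells above 100000 UMIs. Adding 1 CPM and dropping the minimum of UMIs cannot end a call, by their construction. Median-of-ratios scaling kept 47 calls, losing Hmgcs1 between Bud and WT (ratio 0.667) and Pfkm between Bud and het (1.49), which left 1 cholesterol enzyme called between Bud and WT. The Pfkm call was also lost with wells of at least 5000 UMIs (ratio 1.498) and without Kcnq1ot1-rich wells (1.47). Giving every well equal weight, with intervals rescaled from the summed counts, kept 40 calls, lost 9 and added 13. Under it glycolysis had 4 members called between Bud and WT (Gpi1 and Aldoc added as lower), 1 between het and WT and 3 between Cys and Bud, and medians of -0.34 between het and WT and 0.28 between Bud and het. Cholesterol synthesis then had 4 called between Bud and WT, 2 between het and WT and 1 between Bud and het, and medians of -0.28 between het and WT and 0.23 between Cys and Bud. With no minimum of UMIs, Eno1 entered and the glycolysis median between fetal and WT was 0.26. A call at a ratio of 2 left 0 glycolysis members between Bud and WT, het and WT, and Bud and het, and 1 between Cys and WT (Hk1). It left 0 cholesterol enzymes between Bud and WT, Bud and het, and Cys and Bud, 1 between Cys and WT (Dhcr7) and 2 between fetal and WT (Mvd and Dhcr7). Of the pathway counts, 92 stayed within 1.5 times and 16 moved. Of the medians, 103 stayed within the interval of the reported median and 5 moved outside it, the latter given above. Both tallies include values that could not move and so say nothing on stability. Only Cys had wells above 100000 UMIs, so leaving these out changed no comparison without Cys. A minimum of 50 UMIs changed no pathway value, and dropping the minimum changed none for cholesterol synthesis. The causes were not tested beyond these constructions. No paired analysis was possible because each group is 1 library. The spread between cultures was not measured, so no fold marks a difference as larger than it.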
